A study of Mus musculus with 15 samples.

Results

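Liver expression of 10 genes of the antioxidant response was examined in mice fed 3 diets. The genes were Hmox1, Srxn1, Nqo1, Gclc, Gclm, Txnrd1, Gsr, Cat, Sod1 and Sod2, which are targets of the transcription factor NRF2 or enzymes that remove reactive oxygen. They were taken by name, and every probe set on the array that carries 1 of these symbols alone was included, so that 26 probe sets stood for the 10 genes, among 18193 genes with a probe set of 1 symbol and 45037 probe sets in all. Of the 26 probe sets, 23 had enough signal to be tested. The 3 that did not were a further probe set each of Srxn1 (1419942_at), Txnrd1 (1424487_x_at) and Sod1 (1447761_x_at).

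NRF2, encoded by Nfe2l2, is bound in the cytoplasm by KEAP1, which hands it to a ubiquitin ligase for degradation. Electrophiles and oxidants modify KEAP1, and NRF2 then enters the nucleus, pairs with a small MAF protein and binds antioxidant response elements, which the repressor BACH1 occupies at some genes, above all at Hmox1. In the liver, NRF2 governs glutathione synthesis, quinone reduction and thioredoxin recycling in hepatocytes, and heme oxygenase is also made in quantity by Kupffer cells, the resident macrophages that take up red cells.

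The study asked how β-cryptoxanthin, a carotenoid with antioxidant activity, alters a diet-induced model of nonalcoholic steatohepatitis (NASH). All mice were male C57BL/6J with no engineered allele, were 8 weeks old at the start and ate their diet for 12 weeks. The 5 CL+CX mice ate the CL diet with β-cryptoxanthin, at 0.003% by the treatment text and 0.005% by the sample titles. The 5 CL mice ate the CL diet, a chow (38.23%) enriched in cocoa butter (60%) and in cholesterol (1.25%) with sodium cholate (0.5%), and the 5 NC mice ate CRF-1 standard chow alone. Each liver was a bulk sample on its own Affymetrix array, so fewer cells of a type and less RNA per cell cannot be told apart, and p-values measure the spread between these mice. Values are MAS5 signals scaled to a common 75th percentile, which have no unit, and differences are of mean log2 signals. A gene was called where the limma p, adjusted by Benjamini-Hochberg over 20342 probe sets, was under 0.05. The comparisons share mice, since the same CL mice and the same NC mice each enter a pair of them.

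The livers carried the markers of their tissue: all 8 hepatocyte markers (among them Alb, Apoa1 and Ttr) were tested, with summed signals of 43218 to 53152 in CL+CX, 39359 to 64768 in CL and 58018 to 72772 in NC. Of the 8, 3 were called lower than in NC in CL+CX and 3 in CL, where 4.85% and 6.77% of all genes were lower. The 10 macrophage markers summed to 2341 to 5418 in CL+CX, 6853 to 8686 in CL and 1137 to 2744 in NC, and all 10 were above the array median in some liver of each group. The array of CL mouse 2 stood apart, with a mean correlation to the other CL arrays of 0.941, against 0.957 to 0.962 for the other CL mice. The 3′ to 5′ difference of the β-actin control probe sets, a measure of RNA integrity and labelling, was 0.95 to 1.17 log2 units in CL+CX, 0.70 to 0.95 in CL and 0.84 to 1.05 in NC, and every CL+CX array lay above every CL array. The margin was narrow, at 0.949 for the lowest CL+CX array and 0.945 for the highest CL array. A fit that holds this difference thus tells it apart from the diet between CL+CX and CL only in part. The same difference of the GAPDH control probe sets overlapped, at -0.36 to -0.13 in CL+CX and -0.53 to -0.29 in CL.

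The promoters are shown first because NRF2 acts through a short element in them. RefSeq windows from 250 bases before to 50 bases after the start site (GRCm38.p6) were at hand for 7 of the 10 genes, 9 windows in all, and not for Hmox1, Gclc and Gsr. The core TGACNNNGC was searched on both strands, and its variant TGAGNNNGC was added after the windows had been seen. At least 1 TGACNNNGC lay in 4071 of 32851 mouse promoter windows (12.4%) and at least 1 TGAGNNNGC in 5798 (17.6%). Srxn1 was the only one of these 7 genes called by limma between CL and NC, and no link of matches to calls was tested. Srxn1 had 1 match to TGACNNNGC, as Gclm and Sod1 had, and 2 to the variant added later, while Nqo1 had none. The windows of these 4 genes are printed with the matches in capitals. They lie at chr2:152105274-152105573 (plus strand) for Srxn1, chr8:107403156-107403455 (minus strand) for Nqo1, chr3:122245307-122245606 (plus strand) for Gclm and chr16:90220512-90220811 (plus strand) for Sod1.
Srxn1: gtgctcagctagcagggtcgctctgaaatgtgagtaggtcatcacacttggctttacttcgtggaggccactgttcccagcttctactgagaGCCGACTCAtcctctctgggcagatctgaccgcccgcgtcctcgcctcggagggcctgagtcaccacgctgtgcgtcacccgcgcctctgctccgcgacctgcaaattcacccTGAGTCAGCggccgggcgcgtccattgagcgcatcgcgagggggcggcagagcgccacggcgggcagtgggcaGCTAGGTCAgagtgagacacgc
Nqo1: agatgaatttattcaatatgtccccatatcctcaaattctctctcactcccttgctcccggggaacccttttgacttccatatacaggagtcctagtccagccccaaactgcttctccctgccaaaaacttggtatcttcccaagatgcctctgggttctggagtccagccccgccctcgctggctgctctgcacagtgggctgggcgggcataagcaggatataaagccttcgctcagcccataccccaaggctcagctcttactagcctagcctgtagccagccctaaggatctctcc
Gclm: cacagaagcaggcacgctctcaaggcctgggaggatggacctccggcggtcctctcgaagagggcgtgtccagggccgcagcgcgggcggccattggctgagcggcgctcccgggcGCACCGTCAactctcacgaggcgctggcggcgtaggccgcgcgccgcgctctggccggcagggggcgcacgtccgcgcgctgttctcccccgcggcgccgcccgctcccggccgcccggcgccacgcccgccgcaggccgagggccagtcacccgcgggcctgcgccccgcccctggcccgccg
Sod1: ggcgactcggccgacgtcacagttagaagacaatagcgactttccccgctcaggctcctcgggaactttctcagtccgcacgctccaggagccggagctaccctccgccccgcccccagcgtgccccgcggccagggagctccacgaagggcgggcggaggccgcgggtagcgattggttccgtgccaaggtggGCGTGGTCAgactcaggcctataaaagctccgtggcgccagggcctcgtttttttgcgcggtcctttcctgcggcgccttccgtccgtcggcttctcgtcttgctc
In the Srxn1 window, GCCGACTCA began 158 bases before the start site, TGAGTCAGC 45 bases before it and GCTAGGTCA at base 29 after it. The first 2 of these are the TGAGNNNGC form, which the other windows of the 7 genes did not hold. Since that form was added after the windows had been seen, this cannot be read as a trait of Srxn1. In Gclm, GCACCGTCA began 134 bases before the start site, and in Sod1, GCGTGGTCA began 56 bases before it. A further TGACNNNGC match, GCTTTGTCA, began 92 bases before the start of 1 of the 3 Txnrd1 windows, and Cat and Sod2 had no match. A match is a run of letters and not a measured binding site, and sequence outside these windows was not searched.

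Hmox1 and Srxn1 mRNA rose with the CL diet, and none of the other 8 genes was called by limma between CL and NC. The test that the methods name, a one-way test with Tukey comparisons, called 3 of 10 genes there, Hmox1 and Srxn1 higher and Sod1 lower. Of the 23 probe sets, 3 were higher in CL than in NC, 1 of Hmox1 and 2 of Srxn1, and none was lower, beside 5.9% higher and 6.35% lower among all 20342 probe sets tested (at an unadjusted p under 0.05 there were 7 of the 23). With the brightest probe set standing for each gene, 2 of 10 genes were higher and 0 lower, against 7.18% and 6.77% of 10508 genes. The median difference of the 10 genes was -0.01, and that of all genes -0.08. With β-cryptoxanthin in the CL diet, 0 of 10 genes were called by limma in either direction against CL, where 1.48% of all genes were higher and 1.78% lower. That gene level had 1 gene, Hmox1, at an unadjusted p under 0.05, and the same gene was called by the methods' test. At probe set level 1 Srxn1 probe set was lower and 0 were higher, beside 1.55% lower and 1.58% higher among all probe sets, and 5 of the 23 had an unadjusted p under 0.05. The median difference from CL was 0.05 over the 10 genes and 0.02 over all genes. Between CL+CX and NC, 2 of 10 genes, Nqo1 and Srxn1, were higher and 0 lower, with 1 probe set each (backgrounds of 5.12% and 4.85% of genes, and of 4.81% and 4.98% of probe sets), and the median difference was 0.04 over the 10 genes and -0.04 over all genes. The methods' test called Srxn1 higher and Sod1 lower there, and not Nqo1.

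**Figure D1:**
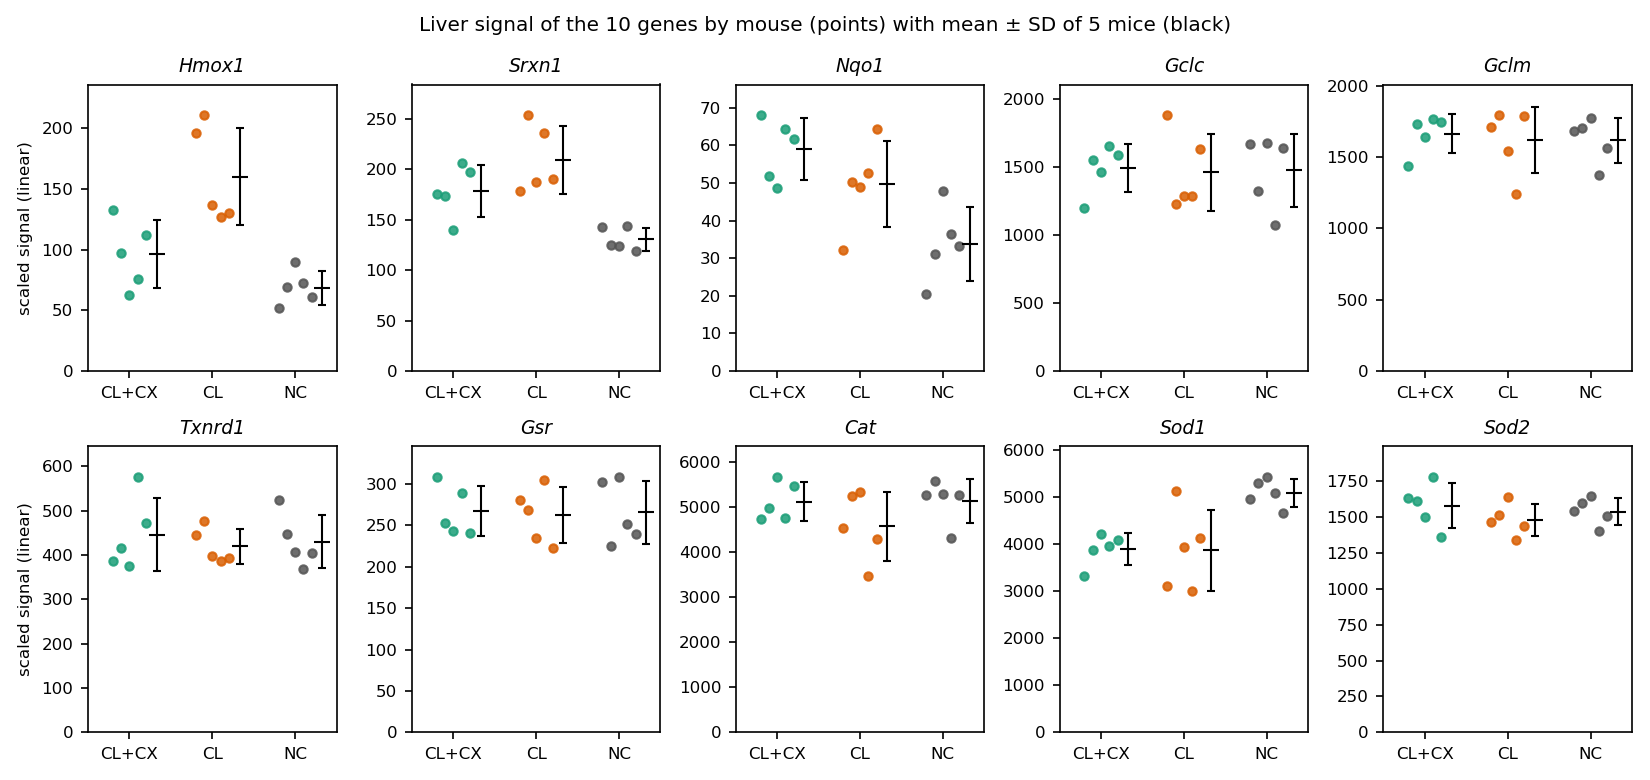
Scaled signal (linear, no unit) of the probe set standing for each gene, 1 point per mouse, in CL+CX, CL and NC from left to right, with the mean and SD of 5 mice in black. Hmox1 and Srxn1 are higher in all 5 CL mice than in any NC mouse, Nqo1 is higher in all 5 CL+CX mice than in any NC mouse, and in the panels of Gclc, Gclm, Txnrd1, Gsr, Cat and Sod2 the 3 groups overlap.

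Hmox1 encodes the inducible heme oxygenase, which splits heme into biliverdin, iron and carbon monoxide, and lies at chr8:75093618-75100593 (GRCm38.p6). Its probe set 1448239_at had signals of 133, 97.0, 62.7, 75.8 and 112 in CL+CX livers, of 196, 211, 137, 127 and 130 in CL livers and of 52.1, 68.8, 89.5, 72.4 and 60.6 in NC livers. All 5 CL livers lay above all 5 NC livers, while the CL+CX livers spread over both ranges: 1 of them, mouse 1, lay inside the CL range. The CL mean exceeded the NC mean by 1.21 ± 0.22 log2 units (SE, n = 5 each), 2.31-fold, with a limma adjusted p of 0.00233. That call held under each of 25 alternative settings, with differences of 1.04 to 1.53. CL+CX lay 0.75 log2 units under CL (difference -0.75 ± 0.22, 95% interval -1.21 to -0.29), with an adjusted p of 0.07, so it was not called. It did pass under 5 of the 25 alternatives, and the adjusted p ranged from 0.0284 to 0.933 over all of them. Against NC, CL+CX differed by 0.46 ± 0.22 (-0.00 to 0.92, adjusted p = 0.192).

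The macrophage markers differed between the same groups. All 10 macrophage markers were called higher in CL than in NC, with a median difference of 1.85 log2 units, 6 of 10 fell in CL+CX relative to CL (median -1.18), and 2 of 10 rose in CL+CX relative to NC. Of all genes, 7.18% were higher in CL than in NC, 1.78% lower in CL+CX than in CL and 5.12% higher in CL+CX than in NC. In the 5 CL+CX livers the summed macrophage signal was 5418, 3377, 2341, 3000 and 3932, and Hmox1 ranked these livers in the same order. The faint neutrophil markers, with sums of 157, 54.7, 33.1, 43.8 and 109, ranked them in that order as well. The sinusoidal endothelial sums of 870, 726, 409, 427 and 580 did so except that mice 2 and 5 changed places. In the CL livers the sum was 6853, 7877, 8686, 7074 and 7375, and the liver with the largest sum, mouse 3, had an Hmox1 signal in the middle of its group. In the NC livers it was 1137, 2696, 1913, 2744 and 2238, and the highest Hmox1 signal, again in mouse 3, fell at the second lowest sum. The part of the macrophage content, or of that of other cell types, in the Hmox1 differences was not tested.

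**Figure D2:**
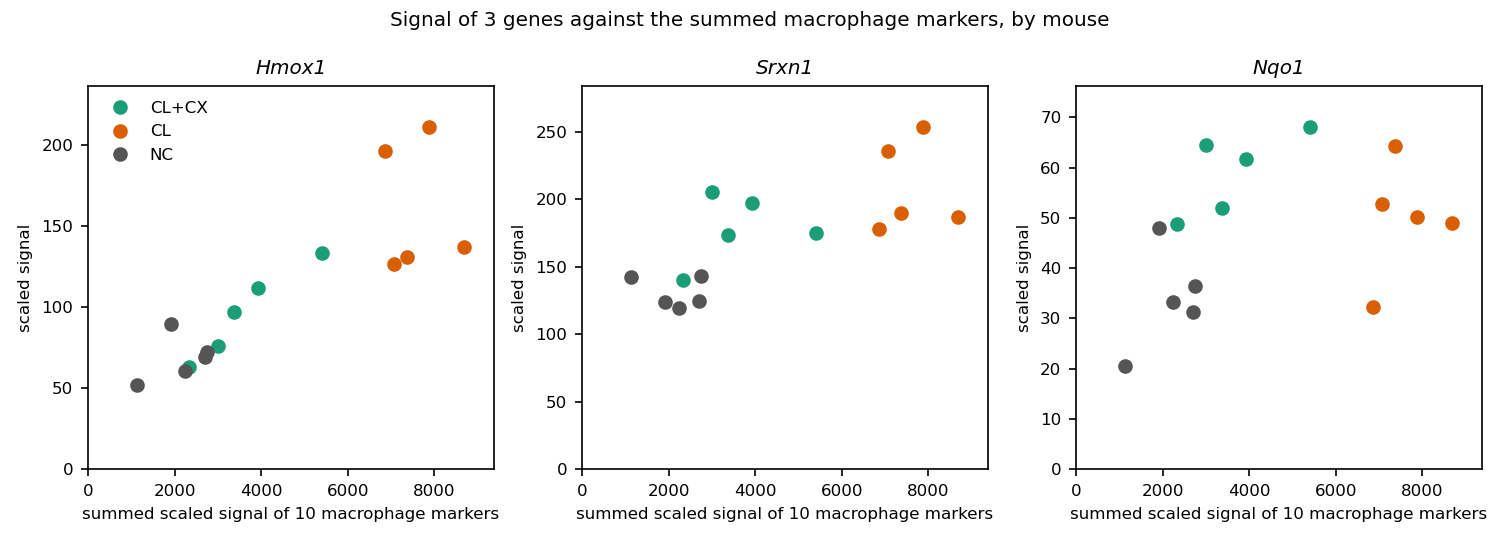
Scaled signal of Hmox1, Srxn1 and Nqo1 (vertical axes) against the summed scaled signal of 10 macrophage markers (horizontal axes), 1 point per liver, coloured by diet. The CL livers sit at sums of 6853 to 8686, apart from the other diets; Hmox1 is lowest in livers with small sums, while Nqo1 reached 68.1 in a CL+CX liver with a sum of 5418.

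Srxn1 encodes sulfiredoxin, which restores overoxidised peroxiredoxins. Its brightest probe set, 1426875_s_at, which is of a kind that can bind related transcripts, had signals of 175, 173, 140, 206 and 197 in CL+CX livers, 178, 254, 187, 236 and 190 in CL livers and 143, 125, 124, 144 and 119 in NC livers. No CL liver was as low as any NC liver, and 4 of 5 CL+CX livers also lay above every NC liver. CL exceeded NC by 0.67 ± 0.13 log2 units (1.59-fold, limma adjusted p = 0.00503), and this call held under all 25 alternatives. CL+CX exceeded NC by 0.44 ± 0.13 (1.36-fold, adjusted p = 0.0496), a call that was lost under 14 of the 25 alternatives, and it differed from CL by -0.23 ± 0.13 (-0.51 to 0.06, adjusted p = 0.375).

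Another Srxn1 probe set placed the CL+CX livers differently. For 1425351_at the signals averaged 40.6 ± 6.79 in CL+CX, 66.5 ± 8.97 in CL and 37.2 ± 9.73 in NC (SD, n = 5 each). Every CL liver, at 56.3 or more, was above every CL+CX liver, at 47.8 or less, and above every NC liver, at 49.1 or less. The difference was 0.87 ± 0.19 between CL and NC (adjusted p = 0.00713), -0.72 ± 0.19 between CL+CX and CL (adjusted p = 0.0491) and 0.16 ± 0.19 between CL+CX and NC (adjusted p = 0.629). The call between CL+CX and CL was the only one of the 23 probe sets there, and it was lost under 17 of 25 alternatives. In a fit that also held each array's β-actin difference it was -0.50 ± 0.29 (adjusted p = 0.911), and without CL mouse 2 it was -0.70 (adjusted p = 0.078). The first of these fits separates the diet only in part from the β-actin difference, whose CL+CX and CL ranges did not overlap. A further probe set, 1451680_at, averaged 84.6 in CL+CX, 113 in CL and 84.9 in NC, with a difference of 0.41 between CL and NC (adjusted p = 0.0727) and of -0.41 between CL+CX and CL (adjusted p = 0.116). Between CL+CX and NC it differed by -0.01 (adjusted p = 0.977). Deviations of these 3 probe sets from their diet means correlated at 0.46 to 0.53 over the 15 livers. They thus ran in the same direction between CL and NC, and disagreed on how far CL+CX lay from either.

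**Figure D3:**
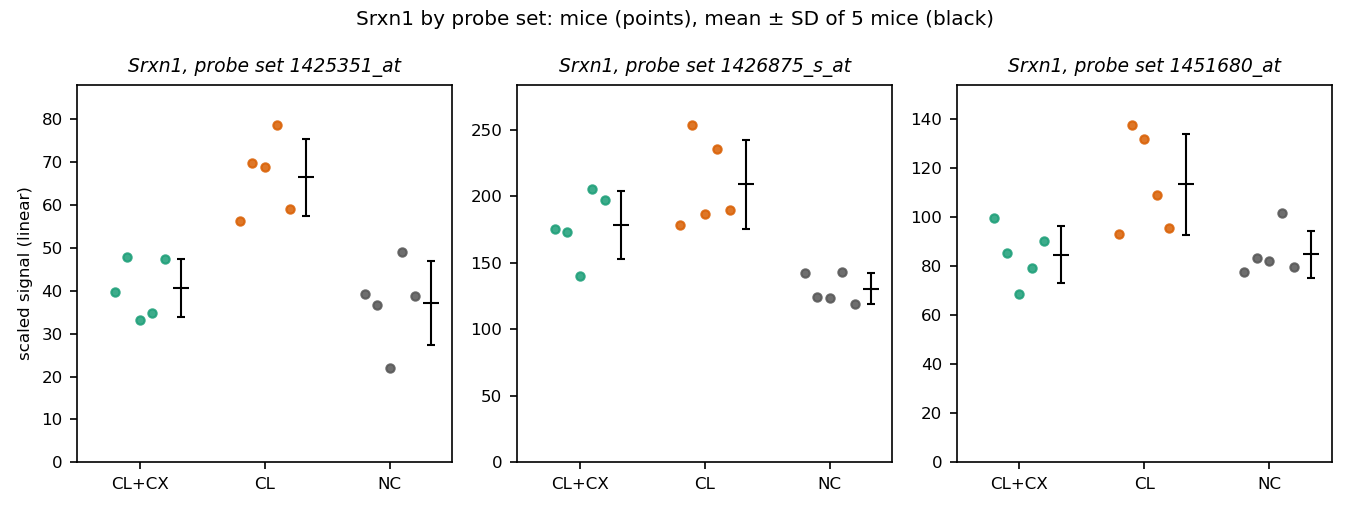
Scaled signal (linear) of the 3 tested Srxn1 probe sets, 1 point per mouse, in CL+CX, CL and NC from left to right, with the mean and SD of 5 mice in black. On 1425351_at all CL+CX livers lie at or under 47.8 and all CL livers at or above 56.3, whereas on 1426875_s_at the CL+CX livers, at 140 to 206, overlap the CL livers, at 178 to 254.

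Nqo1 encodes a quinone reductase and is widely used as a readout of NRF2. Its single probe set, 1423627_at, gave 68.1, 51.9, 48.7, 64.4 and 61.8 in CL+CX livers, 32.2, 50.2, 48.9, 52.7 and 64.3 in CL livers and 20.5, 31.2, 47.9, 36.3 and 33.2 in NC livers. The CL+CX livers all lay above the NC livers, by a narrow margin between the lowest CL+CX liver (48.7) and the highest NC liver (47.9), and CL livers overlapped both. CL+CX exceeded NC by 0.84 ± 0.21 log2 units (1.79-fold, limma adjusted p = 0.0213). The difference between CL and NC was 0.57 ± 0.21 (0.12 to 1.02, adjusted p = 0.0912), and that between CL+CX and CL was 0.27 ± 0.21 (-0.18 to 0.72, adjusted p = 0.519). The order of the means was therefore CL+CX, CL, NC, and neighbours in that order were not called apart. The call against NC was lost under 5 of 24 alternatives. It was 0.70 ± 0.25 (adjusted p = 0.14) with the β-actin covariate.

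**Figure D4:**
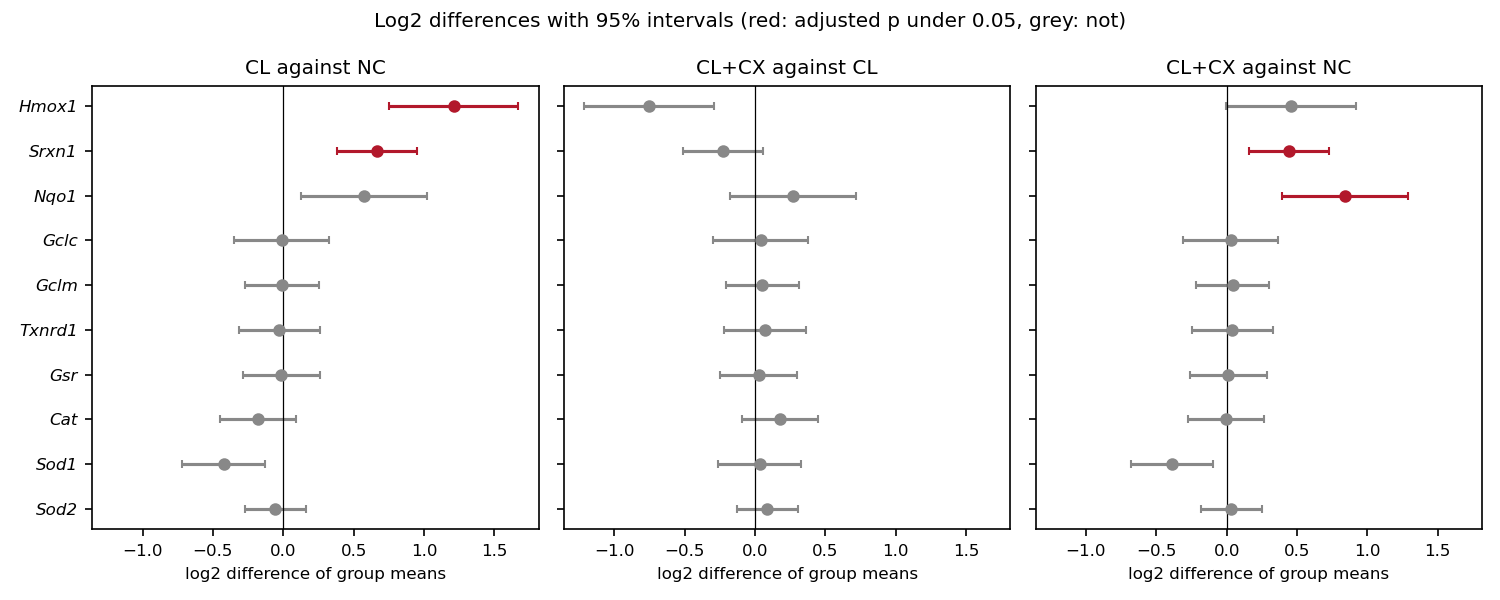
Difference of mean log2 signals with its 95% interval (horizontal axis, log2 units) for each of the 10 genes, in 1 panel for CL against NC and 2 panels for CL+CX, first against CL and then against NC. Red marks an adjusted p under 0.05: Hmox1 (1.21) and Srxn1 (0.67) in the first panel, none in the second, and Srxn1 (0.44) and Nqo1 (0.84) in the third.

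No probe set of the glutathione synthesis genes Gclc and Gclm was called by limma in any comparison. Gclc and Gclm encode the catalytic and the modifier subunit of glutamate-cysteine ligase, the rate-limiting enzyme of that pathway. Gclc (1424296_at) averaged 1494 ± 178 in CL+CX, 1464 ± 283 in CL and 1477 ± 268 in NC, and Gclm (1418627_at) averaged 1664 ± 134, 1616 ± 232 and 1618 ± 156 in the same order. The intervals allowed a difference between CL and NC of -0.35 to 0.32 log2 units for Gclc and of -0.27 to 0.25 for Gclm, and between CL+CX and CL of -0.30 to 0.38 for Gclc and of -0.21 to 0.31 for Gclm. Their second probe sets were brighter in CL+CX than in CL, at 822 against 679 for Gclc (1455959_s_at, difference 0.28, adjusted p = 0.347) and at 399 against 308 for Gclm (1439050_at, difference 0.39, adjusted p = 0.117), without passing the test. The paired probe sets of each gene ranked the livers alike, with correlations of deviations from the diet means of 0.94 for Gclc and 0.79 for Gclm.

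Gsr encodes glutathione reductase, which regenerates reduced glutathione, and Txnrd1 encodes the cytosolic thioredoxin reductase. Gsr (1421817_at) averaged 267 ± 30.3 in CL+CX, 263 ± 33.6 in CL and 266 ± 37.9 in NC, with a difference between CL and NC of -0.01 (-0.29 to 0.26). The other Gsr probe set, 1421816_at, did not follow it (correlation of deviations 0.22): it lay at 188 to 218 in CL+CX, 211 to 313 in CL and 240 to 275 in NC, so that no CL+CX liver reached the NC range, but the difference of -0.27 ± 0.11 between CL+CX and NC had an adjusted p of 0.125. It passed under 3 of 25 alternatives, the methods' test, 2 groups only and without CL mouse 2. Txnrd1 (1421529_a_at) averaged 445 ± 82.4 in CL+CX, 420 ± 39.1 in CL and 430 ± 59.5 in NC, with a difference between CL and NC of -0.03 (-0.32 to 0.26) and between CL+CX and CL of 0.07 (-0.22 to 0.36). Its other tested probe set, 1424486_a_at, averaged 18.6 ± 9.66, 19.1 ± 4.44 and 23.2 ± 3.95 in CL+CX, CL and NC and had differences of -0.34 between CL+CX and CL, -0.64 between CL+CX and NC and -0.30 between CL and NC, none of them called (adjusted p of 0.399 or more), with a correlation of deviations of 0.27 to the first. CL+CX mouse 3 was lowest on it, at 2.88.

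No probe set of the enzymes that remove superoxide and peroxide was called by limma in any comparison. The lowest of their adjusted p was 0.0582, for Sod1 between CL and NC. Cat encodes catalase, which breaks down hydrogen peroxide in peroxisomes, and its probe set 1416430_at averaged 5116 ± 425 in CL+CX, 4570 ± 759 in CL and 5138 ± 485 in NC. The CL mean was the lowest, with a difference from NC of -0.18 (-0.45 to 0.09, adjusted p = 0.393), and the second Cat probe set had the same order. Sod2 encodes the mitochondrial superoxide dismutase, and 1417193_at averaged 1575 ± 157 in CL+CX, 1478 ± 109 in CL and 1536 ± 92.2 in NC, with a difference between CL and NC of -0.06 (-0.27 to 0.16). Another Sod2 probe set, 1448610_a_at, averaged 1437 ± 139 in CL+CX, 1230 ± 111 in CL and 1506 ± 169 in NC (CL against NC -0.29 ± 0.11, adjusted p = 0.106).

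The tested probe sets of Sod1, the cytosolic superoxide dismutase, all had a lower mean log2 signal in CL than in NC, by differing amounts, and disagreed between CL+CX and NC. On 1451124_at the signals were 3333, 3880, 4208, 3957 and 4085 in CL+CX livers, 3115, 5139, 3940, 3003 and 4139 in CL livers and 4970, 5294, 5434, 5082 and 4670 in NC livers. All CL+CX livers and 4 of 5 CL livers lay under every NC liver, and the exception was CL mouse 2, at 5139. The differences from NC were -0.39 ± 0.14 for CL+CX (adjusted p = 0.0855) and -0.42 ± 0.14 for CL (adjusted p = 0.0582), neither of them called. The CL difference passed under 5 of 25 alternatives (the stricter filter, an offset of 16 added to each signal before log2, the methods' test, the robust prior and without CL mouse 2) and the CL+CX difference under 4 (the stricter filter, the methods' test, 2 groups only and without CL mouse 2). Without CL mouse 2, both passed the test, at -0.39 (adjusted p = 0.0314) for CL+CX and -0.53 (adjusted p = 0.00725) for CL. The hepatocyte markers were set beside this probe set. Their sum was 43218, 47858, 53152, 48844 and 50939 in CL+CX livers, 40308, 64768, 51008, 39359 and 48775 in CL livers and 62379, 72772, 60966, 58018 and 60486 in NC livers. CL mouse 2 had the highest CL sum, inside the NC range, every other CL or CL+CX sum lay under the NC sums, and in CL+CX the sum and Sod1 ranked the livers in the same order. The part of the hepatocyte content in the Sod1 differences was not tested. The probe set 1459976_s_at averaged 3424 ± 338 in CL+CX, 3049 ± 323 in CL and 3250 ± 468 in NC, with a difference from NC of 0.08 for CL+CX and -0.09 for CL. The much fainter 1435304_at and 1440222_at differed from NC by -0.35 and -0.24 for CL and by -0.11 and 0.21 for CL+CX, none of them called. Deviations from the diet means on the 4 tested Sod1 probe sets correlated at -0.56 to 0.51.

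The 10 genes did not vary as a block from mouse to mouse. Over the 15 livers, deviations from the diet means correlated between pairs of genes at -0.40 (Gsr and Cat) to 0.65 (Gclm and Cat), with 0.61 for Gclc and Gclm, 0.62 for Cat and Sod1 and 0.20 for Hmox1 and Srxn1. These points share arrays, scaling and RNA, and the values are descriptions. Among 10507 other genes, those whose deviations were most like those of Hmox1 were Rhoc (r = 0.83), Kdr (0.82), Sri (0.79), Ppp2cb (0.79) and Wrap73 (0.79). Kdr is one of the sinusoidal endothelial markers. The first such gene was Nars for Txnrd1 (0.94), Mccc1 for Cat (0.94), Cetn2 for Sod1 (0.95) and Atf6 for Gclc (0.91). No other member was among the 5 genes closest to any of the 10.

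Genes of the machinery that controls NRF2 were called in both comparisons of the CL+CX livers. Of 10 genes of this list, all tested, 0 were called between CL and NC by limma or by the methods' test (3 had an unadjusted p under 0.05, all higher in CL), 2 rose and 1 fell in CL+CX relative to CL, and 3 rose and 1 fell in CL+CX relative to NC. The shares over all genes in these comparisons were 7.18% higher and 6.77% lower, 1.48% and 1.78%, and 5.12% and 4.85%. Maff, 1 of the 3 that rose against NC, passed the filter only through the CL+CX group, where it was high, so its call adds no support. The list's median differences were 0.01, 0.17 and 0.10 in these comparisons, against -0.08, 0.02 and -0.04 over all genes. Bach1, the repressor that competes with NRF2, had signals of 340, 367, 419, 429 and 442 in CL+CX livers, 300, 265, 255, 212 and 293 in CL livers and 249, 262, 269, 230 and 296 in NC livers. Every CL+CX liver lay above every other liver, with differences of 0.60 ± 0.12 from CL (limma adjusted p = 0.0224) and 0.61 ± 0.12 from NC (adjusted p = 0.00689). Mafg, a small MAF partner of both NRF2 and BACH1, was higher in CL+CX by 0.64 ± 0.15 than in CL (adjusted p = 0.0373) and by 0.67 ± 0.15 than in NC (adjusted p = 0.014). Sqstm1, which encodes the autophagy receptor p62 that binds KEAP1, was lower in CL+CX livers than in CL livers (difference -0.61 ± 0.15, adjusted p = 0.04) and than in NC livers (-0.61 ± 0.15, adjusted p = 0.0186). Its signals were 1014 to 1155 in CL+CX, 1134 to 2073 in CL and 1520 to 1915 in NC, so that 4 of 5 CL livers and all NC livers were above the CL+CX livers. Of the 3 calls against CL, that of Bach1 was lost under 7 of 25 alternatives, that of Mafg under 14 and that of Sqstm1 under 17.

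Maff, another small MAF, was faint, with 4 of 5 NC signals under the array medians of 11.3 to 13.5, and its signals were 22.2, 40.3, 49.6, 59.2 and 33.6 in CL+CX, 27.6, 2.85, 39.6, 25.2 and 25.5 in CL and 2.70, 6.88, 2.48, 4.70 and 14.6 in NC. It was tested only because all CL+CX signals lay above the array medians (CL mouse 2 was under its own). The difference between CL+CX and NC was 2.95 ± 0.62 log2 units (adjusted p = 0.00917) and 1.34 ± 0.24 with an offset of 16, and that between CL and NC was 1.86 (adjusted p = 0.0634) and 0.79 with the offset. Nfe2l2 itself averaged 437 ± 47.8 in CL+CX, 543 ± 127 in CL and 375 ± 34.3 in NC. It was higher in 4 of 5 CL livers than in any NC liver, with a difference of 0.50 ± 0.16 (adjusted p = 0.0534). This passed under 5 of 25 alternatives: the stricter filter, the deposited signals, the offset of 16, the robust prior and without CL mouse 2. Without that mouse, the liver with the lowest CL signal (338), the difference was 0.67 (adjusted p = 0.00205). Keap1 averaged 186 ± 29.0, 169 ± 13.0 and 197 ± 23.1 in CL+CX, CL and NC, with no call. Without CL mouse 2 the list had 3 genes higher and 0 lower between CL and NC, and 1 higher and 0 lower between CL+CX and CL, where Bach1 was still called (0.60, adjusted p = 0.0335). With the β-actin covariate, Bach1 differed from CL by 0.60 (adjusted p = 0.745), and 1 probe set on the whole array was called between CL+CX and CL. That covariate and the diet can be told apart only in part in this comparison, since every CL+CX array lay above every CL array on it.

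**Figure D5:**
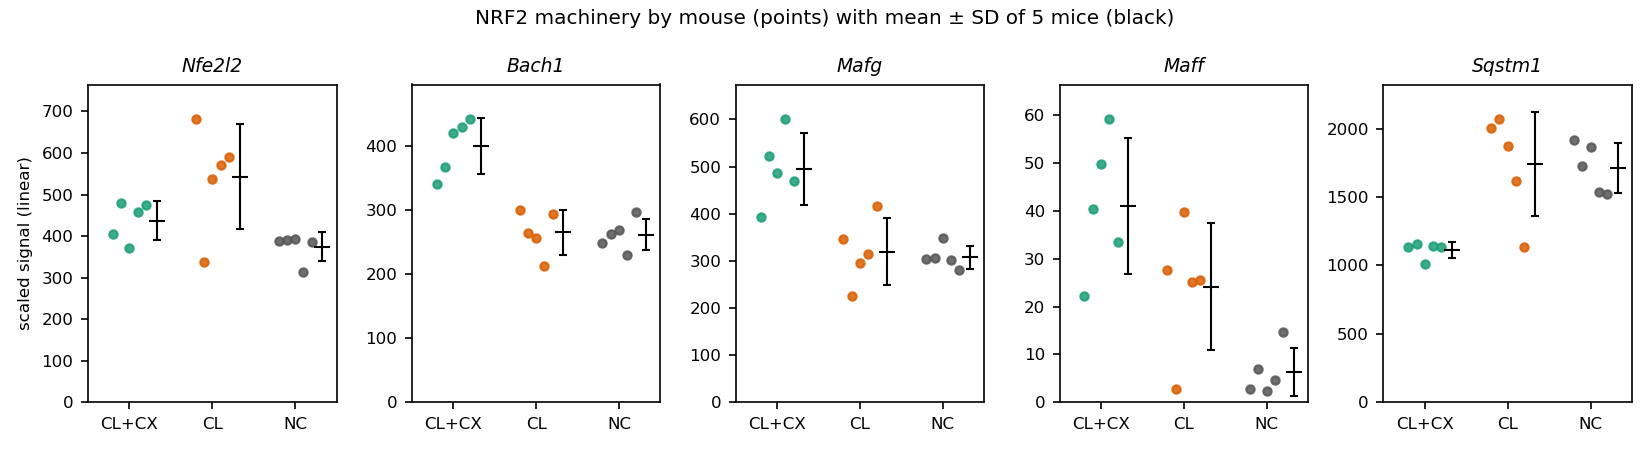
Scaled signal (linear) of Nfe2l2, Bach1, Mafg, Maff and Sqstm1, 1 point per mouse, in CL+CX, CL and NC from left to right, with the mean and SD of 5 mice in black. Bach1 lies at 340 to 442 in CL+CX, above all CL livers (212 to 300) and all NC livers (230 to 296), and Sqstm1 lies at 1014 to 1155 in CL+CX.

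The other NRF2 targets differed from NC in both directions. Of 17 tested of 20 listed, 5 rose and 2 fell in CL relative to NC, 4 rose and 1 fell in CL+CX relative to NC (of all genes, 7.18% were higher and 6.77% lower in CL, and 5.12% higher and 4.85% lower in CL+CX), and 0 were called between CL+CX and CL by limma or the methods' test, with 1 at an unadjusted p under 0.05. The methods' test called 3 (2 higher, 1 lower) in each of the comparisons with NC, and over the alternatives the counts ran from 3 to 8 for CL and from 1 to 7 for CL+CX. The list's median difference was 0.03 between CL and NC, 0.07 between CL+CX and NC and 0.08 between CL+CX and CL. Gstm3, a glutathione S-transferase, had the largest difference, 2.60 ± 0.57 between CL and NC (adjusted p = 0.00784) and 2.38 ± 0.57 between CL+CX and NC (adjusted p = 0.0167). Its signals were 210 to 813 in CL+CX, 93.7 to 804 in CL and 41.7 to 168 in NC, and the probe set is of a kind that can bind related transcripts. Gsta4, which conjugates the lipid peroxidation product 4-hydroxynonenal, was higher than in NC by 1.29 ± 0.26 in CL+CX (adjusted p = 0.00669) and by 1.07 ± 0.26 in CL (adjusted p = 0.0131). Cbr3, a carbonyl reductase, differed by 1.51 ± 0.32 between CL and NC (adjusted p = 0.00692) and by 0.92 between CL+CX and NC (adjusted p = 0.0804). It was tested only through the CL group, since 1 CL+CX and 1 NC signal lay under their array medians, its CL difference was 0.92 ± 0.18 with the offset of 16, and its call was lost under the methods' test (adjusted p = 0.0508). Pgd, an enzyme of the pentose phosphate pathway, which supplies NADPH, was higher than in NC both in CL+CX, by 0.71 ± 0.15 (adjusted p = 0.0106), and in CL, by 0.82 ± 0.15 (adjusted p = 0.00302). The CL call of Pgd held under all 25 alternatives and the CL+CX call was lost under 2. Me1, malic enzyme, another source of NADPH that is also lipogenic, was lower than in NC both in CL+CX (difference -1.20 ± 0.17, adjusted p = 0.000843) and in CL (difference -1.35 ± 0.17, adjusted p = 0.000166).

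Among the other glutathione, thioredoxin and peroxidase enzymes, 17 of 20 were tested, 0 were higher and 3 lower in CL than in NC, 0 were called between CL+CX and CL by limma or the methods' test (2 had an unadjusted p under 0.05), and 0 rose and 1 fell in CL+CX relative to NC. The list's medians were -0.14, -0.01 and -0.18. The 3 were Txnrd3 (-0.65, adjusted p = 0.0119), the mitochondrial thioredoxin reductase Txnrd2 (-0.49, adjusted p = 0.032) and mitochondrial thioredoxin, Txn2 (-0.46, adjusted p = 0.0306), and Txnrd2 was also lower in CL+CX than in NC (-0.63, adjusted p = 0.012). The calls between CL and NC were lost under 4 of 24 alternatives for Txnrd3 and under 10 and 11 of 25 for Txnrd2 and Txn2. Their number ran from 0 to 4 and was 1 under the methods' test. Of all genes, 7.18% were higher and 6.77% lower in CL than in NC. The shares were 1.48% and 1.78% between CL+CX and CL, and 5.12% and 4.85% between CL+CX and NC. Of 8 genes of heme and iron handling beside heme oxygenase, 1 was higher and 0 lower in each of the 3 comparisons, beside these same shares. Blvra, the biliverdin reductase that acts on the product of heme oxygenase, was higher than in NC by 0.64 ± 0.16 in CL+CX (adjusted p = 0.02) and by 0.63 ± 0.16 in CL (adjusted p = 0.0177). Alas1, the rate-limiting enzyme of hepatic heme synthesis, had more signal in CL+CX livers than in CL livers by 1.06 ± 0.26 (adjusted p = 0.0423), with means of 2532 ± 633 in CL+CX, 1252 ± 476 in CL and 1774 ± 622 in NC, a call lost under 16 of 25 alternatives.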

How the data were processed

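The authors hybridised liver RNA of each of 15 mice to its own Affymetrix whole-genome mouse array and deposited MAS5 signals, which are intensity values on a linear scale per probe set, not scaled between arrays and without detection calls. Samples were grouped by the diet in their labels. Here signals were multiplied so that every array, with its 64 control probe sets included, had the same 75th percentile (54.1). Signals that then lay under 1 (11.3%) were set to 1, and values were log2 transformed. The control probe sets were then left out of the tests. A probe set was tested if, in at least 1 group, no array had it under that array's median (20342 of 45037). The model of limma 3.58.1 (R 4.3.3) held the means of all 3 diets, with Benjamini-Hochberg adjustment over the tested probe sets. The fit was tested on simulated data. Deposited array medians of 9.48 to 16.7 mark where signals become imprecise, and the number of arrays limits the precision.

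Gene symbols came from the platform annotation, in which 34945 probe sets have 1 symbol, 932 have several and 9160 have none listed here. For a gene with several probe sets, the one of highest mean signal was used. All 10 members were named, and of each list up to 4 called genes with the largest difference per comparison. The members, the lists and the β-actin covariate were chosen with earlier results of these data known, and the motif TGAGNNNGC was added after the data had been seen. Replicate numbers were not used to pair mice, since the correlation of same-numbered deviations did not pass 0.1 in every pair. The alternatives were no filter or a stricter one, unscaled deposited signals, quantile normalization, 16 added with no floor, the methods' test (a one-way test for unequal variances with Tukey comparisons), a trend with a robust prior, 2 groups only, a replicate block, the β-actin covariate and each mouse left out. Promoter windows were RefSeq's (GRCm38.p6). Figures were drawn with matplotlib 3.10.9.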

Additional observations from a re-analysis of the deposited data

Results flagged for a closer look

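In 7 of 69 groups of 5 mice (23 tested probe sets in 3 diets), 1 mouse stood far from the other 4 by Dixon's criterion, where chance gives about 1 in 20. None of these was in Hmox1, Nqo1 or the Srxn1 probe sets that were called. Among CL+CX mice, mouse 1 had the lowest Gclc signal on 1455959_s_at, at 623 against 860 to 882 in the others, and mouse 3 had the lowest Gsr signal on 1421816_at, at 188 against 216 to 218, and the lowest Txnrd1 signal on 1424486_a_at, at 2.88 against 16.5 to 27.5. Among CL mice, mouse 2 had the highest Sod2 signal on 1448610_a_at, at 1422 against 1139 to 1211, and it is the mouse whose array stood apart from its group. Among NC mice, mouse 4 had the lowest Cat signal on 1416430_at, at 4303 against 5265 to 5576, and the highest Srxn1 signal on 1451680_at, at 102 against 77.8 to 83.3, and mouse 3 had the highest Gclm signal on 1439050_at, at 401 against 329 to 346.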

How the results depend on the processing

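Over all probe sets, 2491 were called between CL and NC, 637 between CL+CX and CL and 1991 between CL+CX and NC. Without a filter the counts were 1127, 38 and 605, and with the β-actin covariate 1139, 1 and 663. Between CL+CX and CL that covariate can be told apart from the diet only in part. The methods' test gave 1584 between CL and NC and 975 between CL+CX and CL, the offset of 16 gave 995 and the deposited signals 81 for the comparison with CL, and a fit of 2 groups only gave 142 for it and 3202 between CL+CX and NC. The deposited signals moved the median probe set to 0.23 between CL and NC and to 0.21 between CL+CX and NC (-0.09 and -0.03 after scaling), and split the calls into 2235 higher and 88 lower, and 1758 higher and 188 lower, where scaling gave 1200 and 1291, and 978 and 1013. Leaving out each mouse gave 1730 to 3912 calls between CL and NC, 105 to 967 between CL+CX and CL and 1197 to 3048 between CL+CX and NC, with the extremes 3912 and 3048 without CL mouse 2, 967 without CL mouse 5 and 105 without CL+CX mouse 3.

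Among the probe sets of the 10 genes, the 3 calls between CL and NC became 5 with the stricter filter and with the deposited signals, and 3 to 5 when each mouse was left out (5, of which 2 were lower, without CL mouse 2). The 1 call between CL+CX and CL became 0 without a filter, with the deposited signals, with 2 groups only and with the β-actin covariate, and 2 (Hmox1 beside Srxn1) with the stricter filter, the offset, the methods' test and the robust prior. It was 0 to 1 when each mouse was left out. The Srxn1 call was kept without NC mouse 3 or 4 or CL mouse 5, and without CL+CX mouse 1 the 1 call was Hmox1 in its place. The 2 calls between CL+CX and NC became 0 without a filter and with the covariate and 4 with 2 groups only, and were 0 to 4 when each mouse was left out (4 without CL mouse 2, 0 without NC mouse 1 or CL+CX mouse 1). The cause of these changes was not tested. No called difference changed sign under any alternative.

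With the replicate number as a block, the calls numbered 2146, 366 and 1671 over all probe sets and 3, 0 and 1 among the 10 genes, in the order of the comparisons given first. Same-numbered mice correlated in their deviations at -0.01 to 0.14 between CL and NC, at -0.13 to 0.05 between CL+CX and CL and at -0.09 to 0.06 between CL+CX and NC, and 3 of 5 numbers correlated best with their own between CL and NC.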
